A study of Mus musculus with 4 samples.

Results

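The 10 genes described here encode the actin-based contractile apparatus and the coat of caveolae: *Cav1*, *Cav2*, *Acta2*, *Flna*, *Tagln*, *Cnn1*, *Cnn2*, *Tpm1*, *Tpm2* and *Myl9*. They were taken from 21938 protein-coding genes of GENCODE M21 on chromosomes 1 to 19, X and Y (mm10). The peaks of a gene are those that overlap its body with 20 kb on each side. These windows joined into 9 stretches of 528 kb in all, since those of *Cav1* and *Cav2* overlap. They held 45 of the 91057 peaks of SMC line 1 and 75 of the 153954 of SMC line 2. For the non-SMC lines the numbers were 79 of 115837 and 64 of 128710, for lines 1 and 2.

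Chromatin accessibility was measured by ATAC-seq, in which a transposase cuts and tags open DNA, in 4 untreated cell lines of mouse small cell lung cancer (SCLC). SMC are NCAM-high CD44-low or CD44-negative cells, and non-SMC are NCAM-low CD44-high cells. Both were sorted by FACS from lung tumors that Cre-expressing adenovirus had induced in Rb1 L/L, Trp53 L/L mice of a mixed C57Bl/6, Balb-c and S129 background, so every line comes from the same tumor model and the controls are not normal cells. SMC lines grow in suspension and non-SMC lines adhere, so cell type and growth form cannot be told apart here. Each type had 2 lines, numbered 1 and 2, with 1 library per line. With 2 libraries against 2, the smallest two-sided p of an exact permutation test is 0.333, so no test was made between the types and every comparison below is a description of these 4 libraries.

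Contractile cells slide myosin along actin filaments. Smooth muscle actin forms the filament, filamin crosslinks it, tropomyosins lie along it, and calponins and transgelin bind it. The myosin regulatory light chain switches the motor when it is phosphorylated. Caveolae are small pits of the plasma membrane, coated by caveolins and cavins, that flatten when the membrane is stretched. Many of these genes are classical targets of serum response factor (SRF), which binds the CArG box and is driven by the myocardin-related coactivators MRTF when actin polymerizes. They mark smooth muscle, myofibroblasts and adherent mesenchymal cells, in which AP-1 and TEAD factors often occupy distal enhancers.

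The 4 lists were of unequal depth. The fragment pileup of the genome-wide background, recovered from the peak statistics, was 0.456 and 1.54 for SMC lines 1 and 2, and 1.49 and 0.639 for non-SMC lines 1 and 2. A height is given below as a multiple of this background, that is, the pileup at the summit divided by the background of the same library. The lowest multiple that a list holds was 6.58, 3.25, 3.36 and 4.69 in the same order, so a library without a peak may still carry signal below that limit. Where the local background around a site is raised, signal above that limit may also go without a peak. A pileup of 1 fragment was worth 0.650 to 2.19 multiples, and heights of shallow libraries are coarse. A region or promoter with a peak in each line of 1 type and none in the other type is called SMC-only or non-SMC-only, and peaks whose -log10 q reached 5 are called strong. Among markers of SMC, *Chga* had an SMC-only promoter, whereas *Ncam1* had promoter peaks in all 4 libraries. The non-SMC markers *Cd44*, *Vim* and *Wwtr1* had non-SMC-only promoters when strong peaks were counted.

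The sequences that carry the patterns described below are given first. The first set shows regions of either class that ranked highest in their gene window, lay outside annotated exons and held a motif. The *Cav1* intron region reaches the *Cav2* window only with the edge of its non-SMC line 1 peak. Its printed sequence and its non-SMC line 2 peak lie beyond that window. All are plus-strand sequence of GRCm38.p6 (mm10) centred on a summit. Capitals mark the AP-1 motif TGACTCA or the TEAD motif GGAATG, on either strand.
*Cav1*, downstream, non-SMC-only, chr6:17353893-17354093: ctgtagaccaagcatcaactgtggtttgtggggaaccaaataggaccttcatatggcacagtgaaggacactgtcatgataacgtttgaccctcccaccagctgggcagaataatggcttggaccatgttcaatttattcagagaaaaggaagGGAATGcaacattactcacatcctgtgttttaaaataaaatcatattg
*Cav1* intron, also the highest such region in the *Cav2* window, non-SMC-only, chr6:17309359-17309559: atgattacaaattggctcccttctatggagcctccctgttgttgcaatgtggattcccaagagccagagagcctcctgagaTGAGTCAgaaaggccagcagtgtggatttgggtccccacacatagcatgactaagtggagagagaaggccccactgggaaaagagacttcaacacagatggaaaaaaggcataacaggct
*Cnn1* window, in an intron of *Acp5*, non-SMC-only, chr9:22128815-22129015: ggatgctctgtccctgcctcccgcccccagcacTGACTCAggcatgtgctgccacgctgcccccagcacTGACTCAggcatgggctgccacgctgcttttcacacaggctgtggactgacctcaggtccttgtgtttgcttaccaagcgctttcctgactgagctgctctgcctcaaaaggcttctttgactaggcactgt
*Tpm1*, downstream, non-SMC-only, chr9:67019988-67020188: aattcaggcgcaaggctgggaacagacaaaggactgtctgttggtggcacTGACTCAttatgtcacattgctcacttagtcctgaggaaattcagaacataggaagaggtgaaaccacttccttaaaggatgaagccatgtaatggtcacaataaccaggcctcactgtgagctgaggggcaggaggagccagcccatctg
*Myl9*, downstream, SMC-only, chr2:156788475-156788675: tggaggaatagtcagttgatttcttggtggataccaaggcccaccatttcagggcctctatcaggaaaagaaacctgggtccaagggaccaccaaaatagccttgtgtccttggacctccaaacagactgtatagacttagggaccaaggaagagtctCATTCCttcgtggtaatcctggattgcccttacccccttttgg

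The second set shows the 250 bases before the TSS of the 4 members that hold a CArG box there, on the strand of the gene, with the box (CC, 6 bases of A or T, GG) in capitals. The TSS is the 5′ end of the GENCODE gene. The box began 117 bases before the TSS of *Myl9*, 112 before that of *Tagln*, 98 before that of *Flna* and 40 before that of *Cnn2*.
*Myl9*, chr2:156775170-156775419, plus strand: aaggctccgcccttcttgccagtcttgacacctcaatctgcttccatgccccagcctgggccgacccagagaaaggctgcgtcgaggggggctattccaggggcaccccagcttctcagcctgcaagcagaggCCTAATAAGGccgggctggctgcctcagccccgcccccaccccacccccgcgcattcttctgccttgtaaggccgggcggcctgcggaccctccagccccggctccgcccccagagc
*Tagln*, chr9:45936059-45936308, minus strand: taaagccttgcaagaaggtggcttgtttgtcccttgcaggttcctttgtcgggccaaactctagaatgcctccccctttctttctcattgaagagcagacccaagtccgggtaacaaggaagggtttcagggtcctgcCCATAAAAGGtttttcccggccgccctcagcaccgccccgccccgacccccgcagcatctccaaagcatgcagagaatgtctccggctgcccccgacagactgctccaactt
*Flna*, chrX:74249821-74250070, minus strand: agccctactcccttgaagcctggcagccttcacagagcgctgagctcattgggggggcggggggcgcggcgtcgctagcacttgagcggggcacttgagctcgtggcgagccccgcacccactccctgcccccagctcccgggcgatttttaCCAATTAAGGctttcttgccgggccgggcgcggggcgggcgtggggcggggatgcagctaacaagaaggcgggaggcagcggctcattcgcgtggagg
*Cnn2*, chr10:79988334-79988583, plus strand: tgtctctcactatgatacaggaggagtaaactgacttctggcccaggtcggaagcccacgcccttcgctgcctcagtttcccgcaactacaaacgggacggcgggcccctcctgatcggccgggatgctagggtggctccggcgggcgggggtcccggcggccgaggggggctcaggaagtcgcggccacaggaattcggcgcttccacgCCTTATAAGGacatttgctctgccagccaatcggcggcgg

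Of these 4 stretches, that of *Myl9* overlapped a peak of each SMC line and no non-SMC peak. Those of *Tagln*, *Flna* and *Cnn2* overlapped no peak in any library. RefSeq promoters (GRCm38.p6, 250 bases before to 50 after each start) were given for 9 of the 10 genes. The CArG box was found in those of *Myl9* and *Cnn2*, and in 1.63% of 32851 RefSeq promoters. The search is of letters, misses boxes that depart from this exact pattern, and does not show whether SRF binds.

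Over the joined windows the SMC lines had 60 ± 21.2 peaks and the non-SMC lines 71.5 ± 10.6 (SD, n = 2 lines each). The log2 ratio of SMC to non-SMC was -0.25, smaller than the SD of 0.40 between lines of a type on the log2 scale. Without SMC line 1 the log2 ratio was 0.069. The windows held 0.0494% and 0.0487% of the SMC lists and 0.0682% and 0.0497% of the non-SMC lists, so the share in non-SMC line 1 was above the other three. Of strong peaks there were 7 and 17 in SMC and 34 and 20 in non-SMC, and the log2 ratio was -1.17. A q-value depends on depth, and 38.0% of the list of non-SMC line 1 were strong, against 14.3% to 19.5% in the other libraries.

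**Figure D1:**
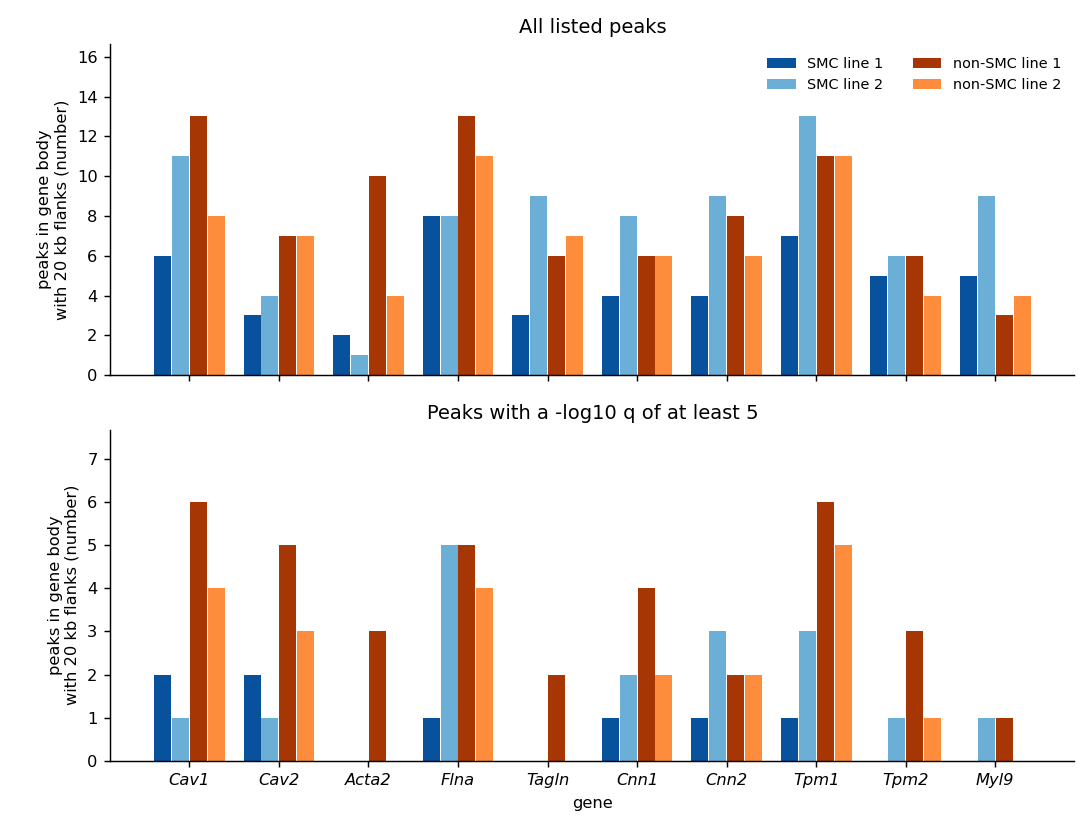
Number of peaks (y axis) in the body of each gene (x axis) with 20 kb flanks, 1 bar per library. The upper panel counts all listed peaks and the lower the strong ones (-log10 q of 5 or more). *Cav2*, *Acta2* and *Flna* stand higher in both non-SMC lines and *Myl9* in both SMC lines in the upper panel.

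Of the 10 genes, 3 (*Cav2*, *Acta2* and *Flna*) had more peaks in both non-SMC lines than in either SMC line, against 13.6% of all protein-coding genes. *Myl9* alone had more in both SMC lines, 1 of 10, against 13.1% of all genes. The other 6 had counts that overlapped between the types. By strong peaks the 3 genes higher in non-SMC were *Cav1*, *Cav2* and *Tpm1*, against 24.0% of all genes, and none of the 10 was higher in SMC, against 3.26%. *Cav2* was the one gene called under both rules. Within 3 kb of the TSS on each side, *Acta2* was the one gene with a non-SMC-only promoter, against 2.45% of all promoters, and no member had an SMC-only one, against 3.08%. By strong peaks 2 promoters, those of *Tpm1* and *Tpm2*, were non-SMC-only, against 5.30% of all, and none was SMC-only, against 1.63%. At a common height of 6.58 multiples, *Cav2* and *Tpm1* had more peaks in non-SMC, against 13.3% of all genes, and *Myl9* in SMC, against 11.0%.

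*Cav1* and *Cav2* encode the caveolins, of which caveolin-1 is the scaffold of the caveolar coat and caveolin-2 its partner. The genes lie side by side on chromosome 6, *Cav2* at chr6:17281185-17289115 and *Cav1* at chr6:17306335-17341452, both on the plus strand. *Cav1* had 6 and 11 peaks in SMC and 13 and 8 in non-SMC, so the types overlapped. *Cav2* had 3 and 4 peaks in SMC and 7 and 7 in non-SMC, and the types did not overlap. The *Cav2* promoter was accessible in all 4 libraries, in a region at chr6:17280685-17281946, with heights of 30.7 and 16.3 multiples in SMC and 29.6 and 26.6 in non-SMC, which overlap.

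The *Cav1* promoter also had a peak in every library but differed in height. Its region at chr6:17305913-17306692 stood at 17.5 and 5.20 multiples in SMC and 45.1 and 32.9 in non-SMC, and both non-SMC lines were above both SMC lines. The local background there was 4.28 and 2.91 times the genome-wide value in non-SMC and 1.10 and 1.00 times in SMC. Divided by it, the multiple of SMC line 1 stood above those of both non-SMC lines, so the types overlapped. Fold enrichment adds 1 to the pileup and to the background, which lowers shallow libraries most. It was 9.24 and 7.70 in non-SMC against 5.99 and 3.55 in SMC. Over the peaks of the *Cav2* window the median local background was 4.28 and 1.85 times the genome-wide value in non-SMC and 1.17 and 1.02 in SMC, and for *Cav1* 1.69 and 1.41 against 1.13 and 1.00. Its part in the counts was not tested. Regions without an SMC peak followed it into the gene. An intronic region 3124 bp downstream of the *Cav1* TSS, chr6:17308978-17309572, stood at 34.3 and 34.4 multiples in the non-SMC lines and had no SMC peak. It holds 1 AP-1 motif, shown above. A weaker non-SMC-only region 1261 bp downstream of the TSS had 16.8 and 14.1 multiples in non-SMC. It overlaps an annotated exon and a second RefSeq promoter of *Cav1*, chr6:17307390-17307689.

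Downstream of *Cav1*, past its 3′ end, lay the highest non-SMC-only region of all 10 windows by mean percentile of fold enrichment (97.5). This region, chr6:17353713-17354641, reached 54.5 and 36.0 multiples in the non-SMC lines, without an SMC peak. It holds the TEAD motif printed above. A neighbour 41919 bp from the TSS, chr6:17347838-17348691, had 25.6 and 17.2 multiples in non-SMC and an AP-1 motif, and overlaps an annotated exon. The same gene also carried the SMC-only region with the highest mean percentile of the 10 windows (93.6). This intronic region, chr6:17331648-17331955, 25431 bp downstream of the TSS, had 17.5 and 20.2 multiples in the SMC lines and no peak in non-SMC, and holds none of the 3 motifs. The cell types thus had peaks at different places of the *Cav1* locus. In *Cav2*, a region 1203 bp downstream of the TSS, over an exon, was non-SMC-only with 17.5 and 21.9 multiples.

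**Figure D2:**
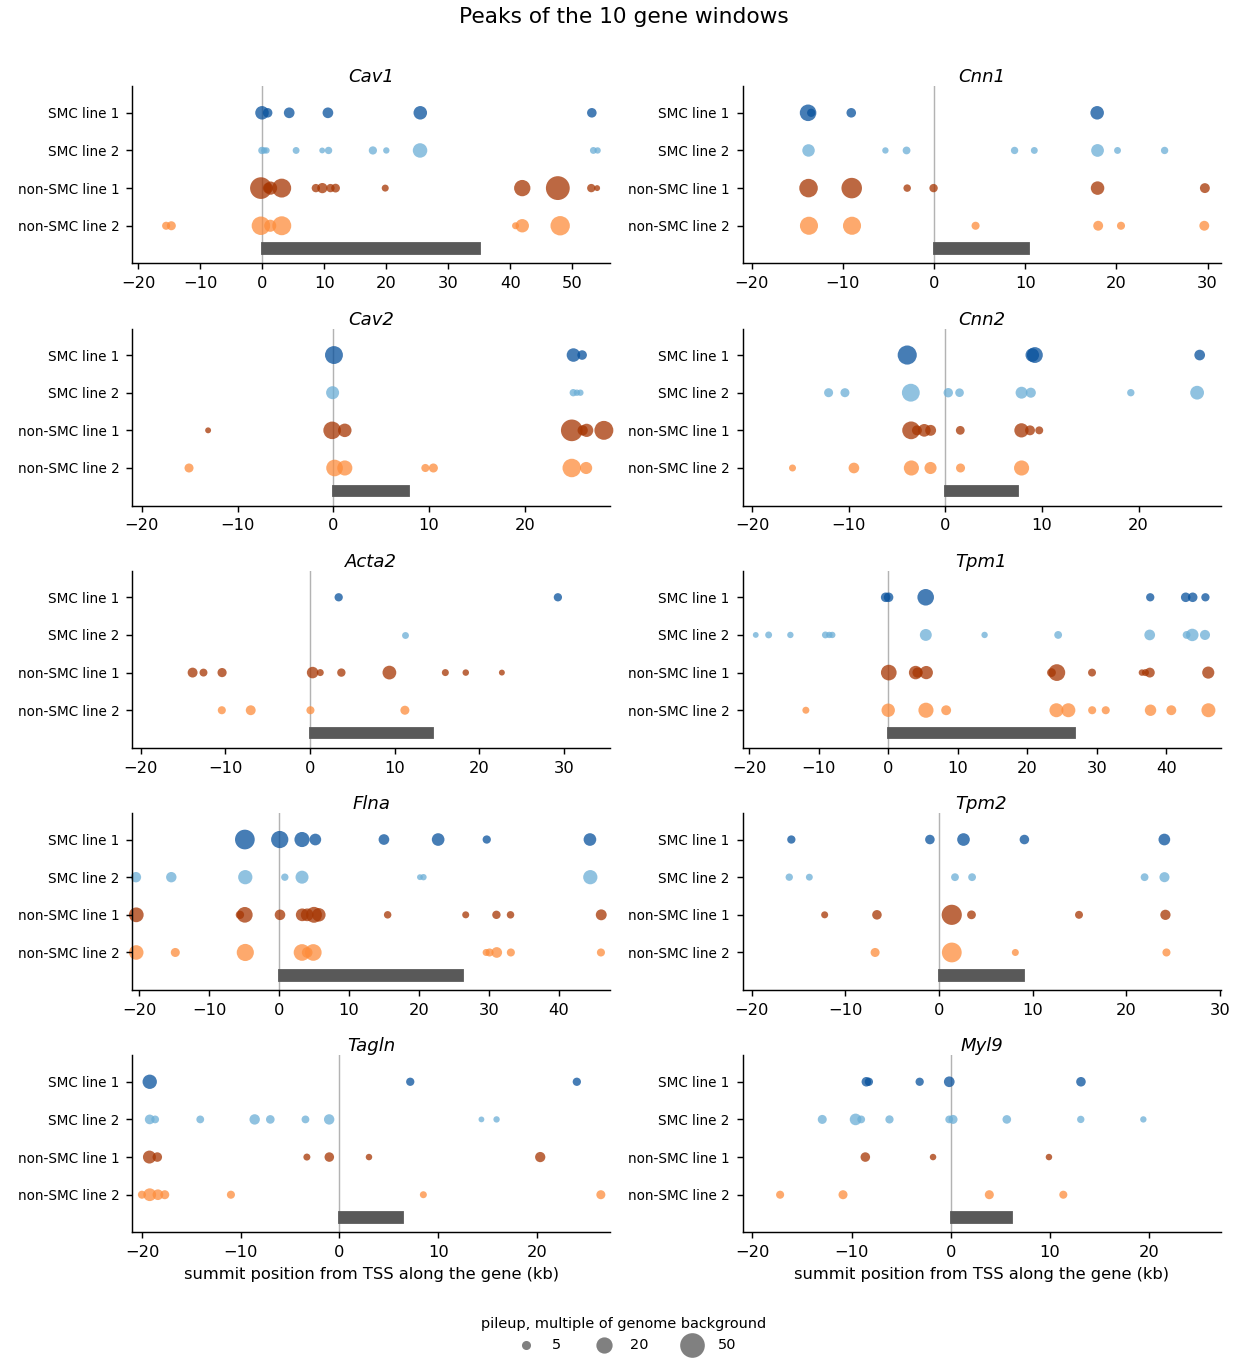
Position of each peak summit from the TSS of the gene in kb (x axis, positive along the direction of transcription) in the 4 libraries (rows), with the gene body as a grey bar and the height in multiples of the genome-wide background as the area of the circle. At *Cav1* both non-SMC lines have large circles near the TSS and beyond the end of the gene, and both SMC lines have a peak 25431 bp into the gene where non-SMC has none.

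*Acta2* encodes smooth muscle alpha-actin, the filament protein that defines smooth muscle and myofibroblasts. It lies at chr19:34241090-34255590 on the minus strand, and its window includes part of *Stambpl1*. It had 2 and 1 peaks in SMC against 10 and 4 in non-SMC. No other member had so few peaks in either SMC line. The promoter had no SMC peak, and 2 and 1 peaks in the non-SMC lines. The shared promoter region, chr19:34254784-34255735, reached 12.8 and 6.26 multiples in the non-SMC lines, the latter below the lowest height that the list of SMC line 1 holds. It holds 1 AP-1 motif and no CArG box within 100 bp of the summit. A CArG box lies in an intronic region 1224 bp downstream of the TSS, with a peak in non-SMC line 1 alone, at 4.71 multiples. The highest peak of the window, over an exon 9395 bp downstream of the TSS, had 18.2 multiples in non-SMC line 1 and no peak in the other 3 libraries. *Acta2* had 3 strong peaks in non-SMC line 1 and none elsewhere, so the non-SMC lines differed from each other.

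*Flna*, on chromosome X (chrX:74223461-74249820, minus strand), encodes filamin A, which crosslinks actin filaments and ties them to the membrane. It had 8 and 8 peaks in SMC and 13 and 11 in non-SMC, without overlap. Strong peaks, at 1 and 5 against 5 and 4, did overlap. Inside the gene, 2 neighbouring intronic regions were taller in non-SMC. The region at chrX:74244559-74245007 stood at 24.2 and 26.6 multiples in non-SMC and 13.2 in SMC line 1, with no peak in SMC line 2, and holds an AP-1 motif. The region at chrX:74245751-74246052 was non-SMC-only with 15.5 and 11.0 multiples. By mean percentile of fold enrichment the highest non-SMC-only region of the window was another, chrX:74218607-74218799, 31127 bp downstream of the TSS and beyond the gene, with 6.73 and 11.0 multiples. At the GENCODE TSS the order was the other way in line pair 1. A region 92 bp downstream of it stood at 28.5 multiples in SMC line 1, against 10.8 for non-SMC line 1, with no peak there in either line 2. The RefSeq promoter of *Flna*, chrX:74246485-74246784, lies outside the 3 kb window of this TSS. A region overlapping it had a peak in every library, with 21.9 and 16.3 multiples in SMC and 15.5 and 26.6 in non-SMC. The highest SMC-only region of the window, chrX:74205141-74205489, with 15.4 and 19.5 multiples, lies in an intron of the neighbouring gene *Tktl1*. The tallest shared peak lay at the promoter of *Emd*, a neighbour whose TSS falls in the window.

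*Tagln*, *Cnn1* and *Cnn2* encode transgelin, calponin-1 and calponin-2, small actin-binding proteins that share a calponin domain or repeat. Transgelin and calponin-1 are markers of differentiated smooth muscle, and calponin-2 is found more widely. *Tagln* (chr9:45929619-45936058) had 3 and 9 peaks in SMC and 6 and 7 in non-SMC. *Cnn1* (chr9:22099216-22109630) had 4 and 8 in SMC and 6 and 6 in non-SMC. *Cnn2* (chr10:79988584-79996062) had 4 and 9 in SMC and 8 and 6 in non-SMC. In all 3 the SMC lines lay on either side of the non-SMC lines, so no order of the types was seen.

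Peaks near the TSS of these 3 genes were weak. The *Tagln* promoter had a peak at 10.4 multiples in SMC line 2, and at 8.75 multiples for non-SMC line 1, 1031 bp upstream of the TSS, and none in the other 2 libraries. The *Cnn1* TSS was overlapped by a peak of 6.73 multiples in non-SMC line 1 alone. In *Cnn2* a region 1538 bp upstream was non-SMC-only, with 11.4 and 14.1 multiples. The SMC-only region of its window, chr10:80014472-80015101, with 11.0 and 18.2 multiples, lies in the gene body of *Abca7*. Around this gene the local background was raised in every library, at a median of 1.88 to 3.54 times the genome-wide value, against 1.09 to 1.35 over all peaks, and its part in the counts was not tested.

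The largest difference in height in these 3 windows lay upstream of *Cnn1*. The region chr9:22089906-22090350, 9025 bp before the *Cnn1* TSS and 4753 bp before that of *Ecsit*, stood at 40.4 and 31.3 multiples in non-SMC, 8.77 in SMC line 1 and had no peak in SMC line 2. It holds an AP-1 motif. Which gene it acts on, if any, cannot be read from these data. A non-SMC-only region in an intron of *Acp5*, printed above, had 9.42 and 9.39 multiples and 2 AP-1 motifs. In the *Tagln* window the region with the highest fold enrichment in every library, with 9.10 to 19.7 multiples, sat at the promoter of *Sidt2*.

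*Tpm1* and *Tpm2* encode tropomyosins, coiled-coil proteins that lie along the actin filament and control where myosin binds. *Tpm1* (chr9:67022590-67049406, minus strand) had 7 and 13 peaks in SMC and 11 and 11 in non-SMC, and *Tpm2* (chr4:43514711-43523765, minus strand) had 5 and 6 against 6 and 4. Counts of all peaks therefore did not separate the types in either gene. Heights of some regions did. At the *Tpm1* TSS, the region chr9:67048822-67049896 stood at 23.6 and 17.2 multiples in non-SMC and 8.77 in SMC line 1, with no peak in SMC line 2. Further into *Tpm1*, an intronic region 24252 bp downstream of the TSS, chr9:67024925-67025567, had 26.9 and 18.8 multiples in non-SMC and 5.85 in SMC line 2, with no peak in SMC line 1. It holds an AP-1 motif. Of strong peaks *Tpm1* had 1 and 3 in SMC and 6 and 5 in non-SMC, without overlap.

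A wider gap was seen in *Tpm2*. An intronic region 1348 bp downstream of its TSS, chr4:43521808-43522589, stood at 39.0 and 37.6 multiples in the non-SMC lines, 5.85 in SMC line 2 and had no peak in SMC line 1. The non-SMC lines differed little from each other there. The region holds an AP-1 motif. The highest non-SMC-only region of the *Tpm2* window by mean percentile, chr4:43530251-43530766, 6641 bp upstream of the TSS, was lower, with 8.75 and 7.82 multiples. In the *Tpm1* window the opposite pattern also occurred, with 2 SMC-only regions 43752 and 42805 bp downstream of the TSS, the taller at 8.77 and 15.0 multiples. Between them and the 3′ end of the gene lay the non-SMC-only region printed above, at 6.06 and 6.26 multiples, which are below the lowest height that the list of SMC line 1 holds.

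*Myl9* (chr2:156775420-156781658, plus strand) encodes a regulatory light chain of smooth muscle and non-muscle myosin II. It was the one member with more peaks in SMC, 5 and 9 against 3 and 4 in non-SMC. Both SMC-only regions of its window were low. The one at the promoter, chr2:156775166-156775391, had 11.0 and 5.85 multiples and covers the CArG box printed above. The other, 13155 bp downstream of the TSS, had 8.77 and 5.20 multiples and holds the TEAD motif shown above. Strong peaks numbered 0 and 1 in SMC and 1 and 0 in non-SMC, so the difference lay in weak peaks. The local background at the peaks of this window had a median of 2.34 times the genome-wide value in SMC line 2 and 1.67 in SMC line 1, against 1.17 and 1.53 in non-SMC, and its part in the count was not tested. *Myl9* lies in a stretch with *Dlgap4*, and peaks there cannot be assigned to either gene.

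All peaks of the 9 joined windows merged into 168 regions. Of these, 15 (8.93%) were non-SMC-only, against 7.33% of the 357570 regions of the genome. Another 7 (4.17%) were SMC-only, against 4.37%, and 13 (7.74%) had a peak in all 4 libraries, against 3.81%. A further 112 (66.7%) had a peak in 1 library alone, against 76.9%. The shares of the 2 cell-type classes were thus near those of the genome. The non-SMC-only regions were spread over 8 windows, with 4 each in those of *Cav1* and *Flna* and none in those of *Tagln* and *Myl9*. Of the 15, 13 had a member as the gene with the nearest TSS, and 11 lay more than 3 kb from every TSS. Of the 7 SMC-only regions, 3 had a member as the nearest gene.

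Heights were also compared region by region, with a library without a peak set at the lowest multiple of its list. Where the local background is raised, as around *Cnn2*, this value may be too low, and a call there may not reflect a difference in height. A region counted as higher in a type when both lines of that type had a peak and both stood above both libraries of the other type. By this measure, added after the data were seen, 21 regions (12.5%) were higher in both non-SMC lines, against 7.99% of all regions. Another 9 (5.36%) were higher in both SMC lines, against 4.85%. Of the 21 regions, 10 were non-SMC-only, 3 had a peak in all 4 libraries, and 8 had a peak in 1 SMC line. The 8 include the *Tpm2* intron, the *Tpm1* TSS and the region upstream of *Cnn1*. The windows of *Acta2* and *Myl9* held none of the 21. The shared *Acta2* regions were no taller in non-SMC line 2 than the limit of SMC line 1, and no region of the *Myl9* window had a peak in both non-SMC lines.

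**Figure D3:**
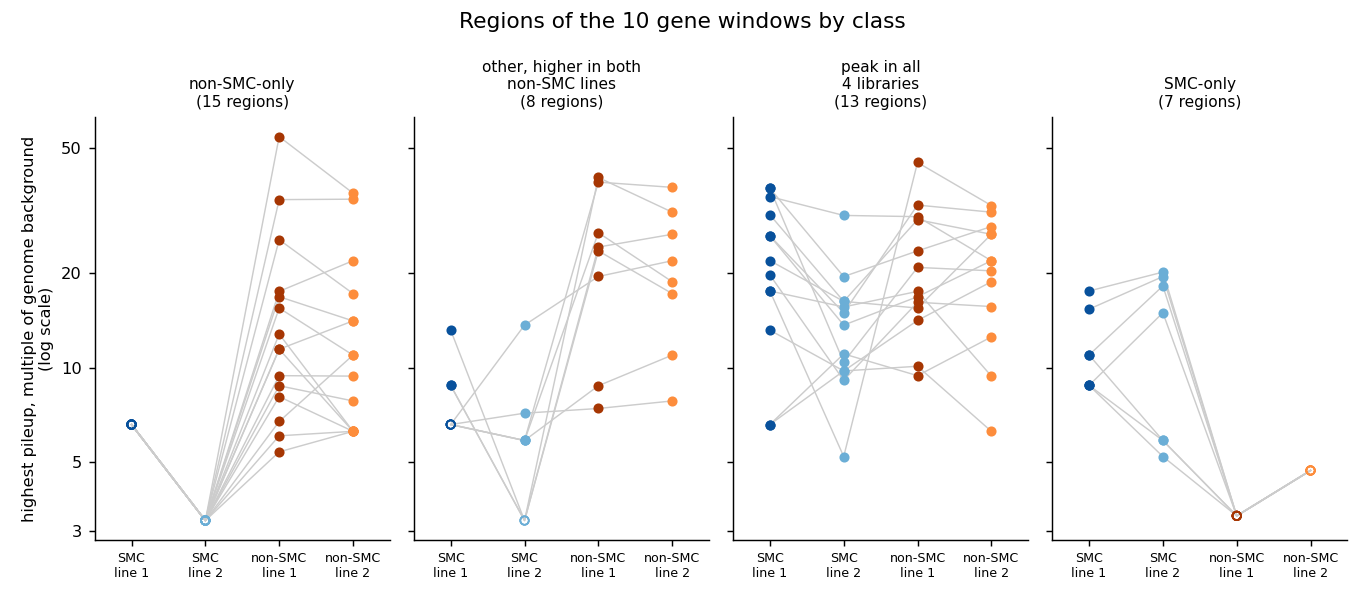
Highest pileup of each region in multiples of the genome-wide background (y axis, log scale) in the 4 libraries (x axis), by class. Each line is 1 region, filled points are peaks, and open points mark libraries without a peak, drawn at the lowest multiple of that list. The non-SMC-only regions reach 54.5 multiples and the SMC-only regions 20.2, and the second panel shows the 8 regions with a peak in 1 SMC line that stand higher in both non-SMC lines.

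Motifs were counted within 100 bp of the highest summit of each region. The AP-1 motif was in 5 of the 15 non-SMC-only regions (33.3%, Wilson 95% interval 15.2% to 58.3%), in none of the 7 SMC-only regions (0%, up to 35.4%), and in 27 of all 168 (16.1%, 11.3% to 22.4%). Over the genome it was in 46.8% of non-SMC-only, 4.19% of SMC-only and 11.3% of all regions. The member intervals hold the genome-wide shares of both classes, so at this number of regions no departure from them was detectable. Among the 21 regions higher in both non-SMC lines, 8 held it (38.1%, 20.8% to 59.1%), against 44.6% over the genome.

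The TEAD motif was in 2 of 15 non-SMC-only regions (13.3%, 3.74% to 37.9%), against 19.3% of that class and 12.6% of all regions in the genome. The CArG box was in none of the 15 (0%, up to 20.4%) and in 1 of 7 SMC-only regions, that at the *Myl9* promoter, against 0.980% and 1.01% of those classes in the genome. In all 168 regions it occurred 4 times (2.38%, 0.930% to 5.96%), against 0.925% of all regions. The intervals cover counting error alone.

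**Figure D4:**
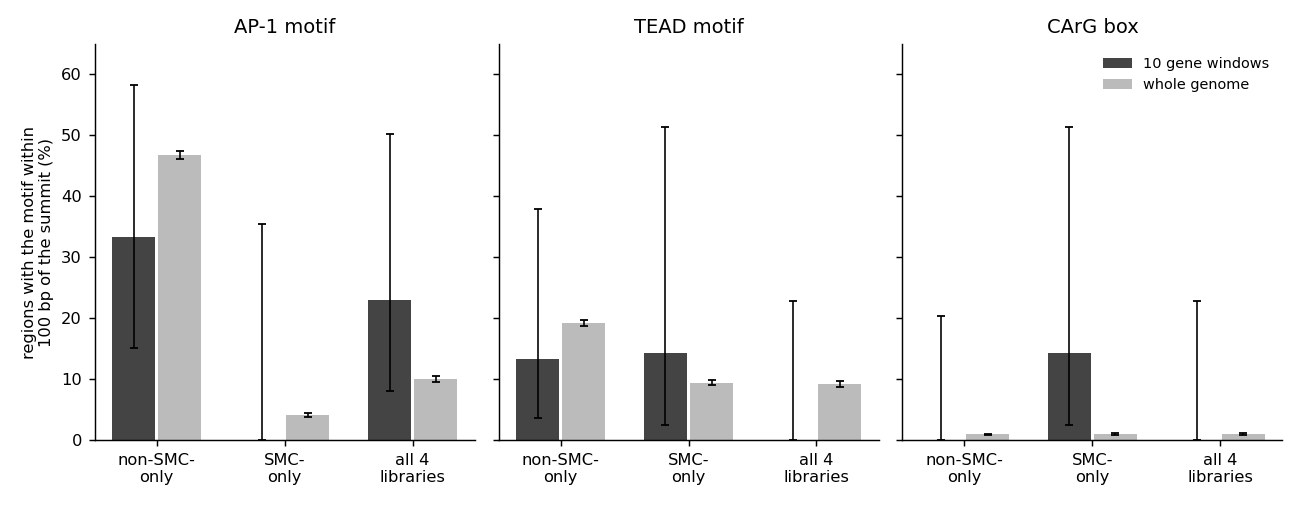
Share of regions with each motif within 100 bp of the summit (y axis, %), by class of region (x axis), in the 10 gene windows (dark) and the genome (light), with Wilson 95% intervals as bars. In the gene windows the AP-1 motif is in 33.3% of non-SMC-only regions and 0% of SMC-only regions, with wide intervals.

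Other genes of the same systems were counted in the same way. Of 27 further genes of the contractile cytoskeleton, 8 had more peaks in both non-SMC lines and 0 in both SMC lines, against 13.6% and 13.1% of all genes. Among the 8 were the non-muscle myosin heavy chain *Myh9*, caldesmon (*Cald1*), desmin (*Des*), vinculin (*Vcl*), *Actn4*, *Tpm4* and *Cnn3*. *Cald1* had 5 and 20 peaks in SMC and 34 and 27 in non-SMC. By strong peaks the numbers were 15 and 0 of 27, against 24.0% and 3.26% of all genes. No promoter of the 27 was non-SMC-only or SMC-only by all peaks, against 2.45% and 3.08% of all promoters. Of the 27, 18 had a peak in all 4 libraries, and the share of all promoters that do was not computed. By strong peaks 4 of the 27 promoters (*Actg1*, *Cald1*, *Tpm4* and *Flnc*) were non-SMC-only, against 5.30% of all promoters, and 0 were SMC-only, against 1.63%. The window of *Tln1*, one of the 27, overlaps that of *Tpm2*.

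Of 7 further caveolar genes, *Cavin3* and *Pacsin2* had more peaks in both non-SMC lines, and 0 of the 7 had more in both SMC lines, against 13.6% and 13.1% of all genes. *Cavin3*, which binds the caveolar coat, had 1 and 1 peaks in SMC and 7 and 7 in non-SMC. *Cavin4* had a non-SMC-only promoter, against 2.45% of all promoters. By strong peaks, 5 of the 7 were higher in non-SMC, against 24.0% of all genes, among them *Cavin1*, which is needed to form caveolae, with 1 and 1 against 6 and 5. Of 4 regulators, the SRF coactivators *Mrtfa* and *Mrtfb* had more peaks in both non-SMC lines, against 13.6% of all genes. For *Mrtfa* the numbers were 12 and 20 in SMC against 35 and 26 in non-SMC. *Srf* itself had more peaks in both SMC lines, with 8 and 8 in SMC and 6 and 4 in non-SMC, against 13.1% of all genes. Its strong peaks numbered 1 and 2 against 4 and 3, so its order turned with the threshold. By strong peaks all 4 regulators, *Myocd* among them, were higher in non-SMC, against 24.0% of all genes.

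**Figure D5:**
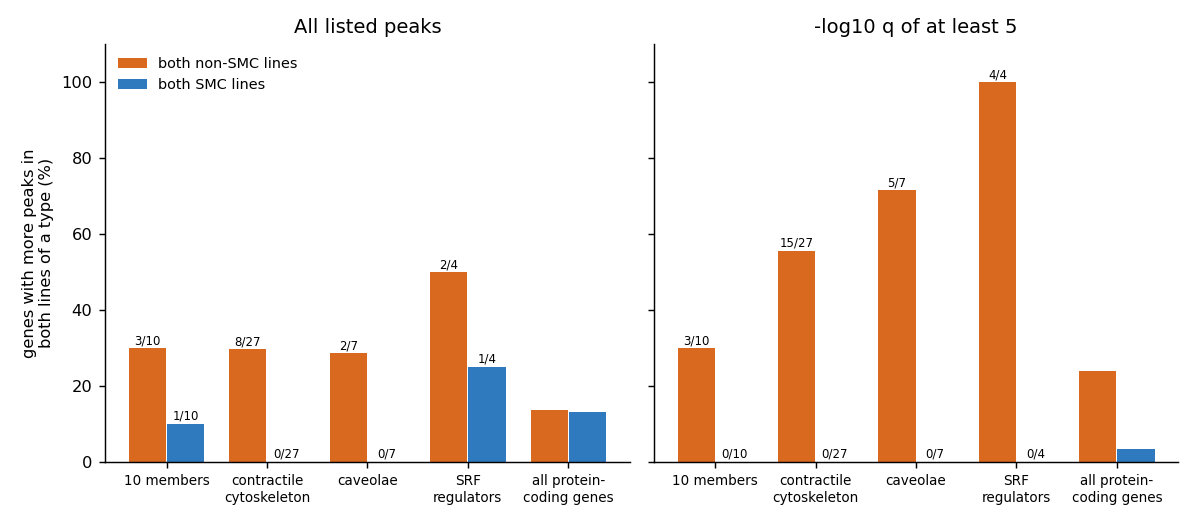
Percentage of genes (y axis) with more peaks in both non-SMC lines (orange) or both SMC lines (blue), for the 10 members, the 3 lists of related genes and all protein-coding genes (x axis), with the number of genes over the bars. The left panel uses all peaks and the right strong peaks (-log10 q of 5 or more), where 15 of 27 contractile genes and 24.0% of all genes are higher in non-SMC.

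Since the members also mark other cells of a lung tumor, markers of such cells were counted in the same libraries. Of these, *Myh11* and *Des* are also among the contractile genes counted above. Of 5 genes of smooth muscle and pericytes, 1 and 4 promoters had a peak in SMC lines 1 and 2 and 1 and 3 in non-SMC lines 1 and 2, and their windows held 40 and 35 peaks in SMC against 50 and 41 in non-SMC. Of the 5, *Des* and *Pdgfrb* had more peaks in both non-SMC lines, and by strong peaks 4 did (*Myh11*, *Rgs5*, *Pdgfrb* and *Cspg4*), with a non-SMC-only strong promoter at *Pdgfrb*. None had more in both SMC lines by either count. *Des* had no promoter peak in 3 libraries, and *Myh11*, the heavy chain of smooth muscle myosin, had promoter peaks in both SMC lines and in non-SMC line 2. Of 6 fibroblast genes, 3 and 2 promoters had a peak in SMC and 3 and 4 in non-SMC. Their windows held 18 and 28 peaks in SMC against 40 and 40 in non-SMC, *Pdgfra*, *Col1a1* and *Col1a2* had more peaks in both non-SMC lines, and *Col1a1* and *Col1a2* had non-SMC-only promoters by strong peaks, whereas *Lum* had no promoter peak. Of 4 endothelial genes, 2 and 3 promoters had a peak in SMC and 2 and 3 in non-SMC. *Pecam1* had a non-SMC-only promoter, and *Kdr* had 3 and 4 peaks in SMC against 9 and 11 in non-SMC. Of 3 immune genes, 0 and 1 had one in SMC and 2 and 1 in non-SMC, and *Cd3e* had none, whereas *Cd68* had more peaks in both non-SMC lines. By window peaks, *Tek* had 4 and 8 in SMC against 2 and 4 in non-SMC, and *Cd3e* 2 and 9 against 2 and 1. Over all protein-coding genes 13.6% had more peaks in both non-SMC lines, and 24.0% by strong peaks. For both SMC lines these shares were 13.1% and 3.26%. Of all promoters 2.45% were non-SMC-only, and 5.30% by strong peaks. By genotyping, the paper found *Rb1* and *Trp53* deleted in both sorted subpopulations. The part of such other cells in the results was not tested.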

How the data were processed

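ATAC-seq was done in 2 SMC and 2 non-SMC lines. Per the study's methods, Bowtie2 v2.3.4 aligned 150 bp read pairs to mm10, duplicates were removed, and MACS2 v2.1.1 called peaks per library, with settings not given in the sources used here. The authors deposited 1 peak list per library, with a fold enrichment (ratio of pileup to local background, with 1 added to each), the -log10 p-value and -log10 q-value at the summit, and a score that was not used. The lists reach down to a -log10 p of 2.00. Read totals per library are not given in the files. The paper gives a read total for SMC and a lower one for non-SMC, without a value for each line. Depth was therefore judged from the recovered background.

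For every peak, fold enrichment and Poisson p-value gave back the pileup and the background, on chromosomes 1 to 19, X and Y. The steps were tested on simulated data. Genes, exons and TSS were those of GENCODE M21, and sequence was GRCm38.p6. A shared base (minimum overlap 1 bp) matched peaks, and overlapping peaks of the 4 lists were merged into regions. Promoters are 6 kb centred on the TSS. Motifs were searched on both strands. Analyses used Python 3.11.15, pandas 2.3.3 and scipy 1.17.1, and overlaps were checked against bedtools 2.31.1.

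All 10 members are named. By the rule for naming, regions come from their promoter peaks, the highest peak of each library and, per gene, the region of each 1-type class with the highest mean percentile of fold enrichment. The last are given for every gene that has one, and of the first 2 kinds not every peak is printed. Other regions were named after their values were seen. Members, gene lists and measures were chosen with earlier results of these data known. The alternatives used strong peaks alone (-log10 q of 5 or more), equal numbers of top peaks, a common multiple of the background, each library left out, line pairs alone, other flanks, promoter windows, overlaps and motif windows. Some genes of the lists are not reported here.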

Additional observations from a re-analysis of the deposited data

Results flagged for a closer look

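The line pairs moved in opposite directions in the summed peaks and in 6 genes, taking SMC minus non-SMC lines of the same number. The log2 ratio of the summed peaks was -0.81 in line pair 1 and 0.23 in line pair 2. The differences in peaks were -7 and 3 for *Cav1*, -3 and 2 for *Tagln*, -2 and 2 for *Cnn1*, -4 and 3 for *Cnn2*, -4 and 2 for *Tpm1* and -1 and 2 for *Tpm2*, in pairs 1 and 2. Line pair 1 sets the library of lowest background (0.456) against one of 1.49, and line pair 2 sets one of 1.54 against 0.639, so depth and direction move together. The difference between the pairs was not tested, and neither was the part of depth in it.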

How the results depend on the processing

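*Cav2* had more peaks in both non-SMC lines in all listed peaks, in strong peaks (-log10 q of 5 or more), with equal numbers of top peaks and at a common multiple of the background, and so was called under each threshold, but not with 50 kb flanks. *Acta2* lost its call by strong peaks and at the common multiple, and *Flna* under these, with equal numbers of top peaks and with no flank or 5 kb. By strong peaks the log2 ratio of the summed peaks was -1.17, 0 members were higher in SMC, 2 promoters (*Tpm1* and *Tpm2*) were non-SMC-only, 1 region was SMC-only, and the AP-1 share was 70.0% of 10 non-SMC-only regions. For this AP-1 share neither an interval nor the genome-wide share of strong non-SMC-only regions was computed, so it cannot be judged against the genome. With equal numbers of top peaks 5 members were higher in non-SMC, 2 promoters were non-SMC-only and 1 (*Myl9*) was SMC-only. At the common multiple of 6.58, 0 promoters were non-SMC-only, 1 (*Myl9*) was SMC-only and 4 regions were SMC-only. With no flank, 5 kb and 50 kb, the members higher in SMC were 0 each time, non-SMC-only regions 5, 8 and 29, and regions higher in both non-SMC lines 10, 13 and 35. SMC-only regions were 1 and 2 with no flank and 5 kb, and regions higher in both SMC lines 1 and 4. A promoter of 2 kb gave 1 SMC-only promoter (*Myl9*), and the TSS of every transcript gave 0 non-SMC-only promoters. An overlap of 50% both ways left 4 SMC-only regions. The TEAD share was 0% within 50 bp. The number of regions follows from the length searched for the flanks, and for the rest the cause was not tested.

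When each library was left out, the log2 ratio ranged from -0.67 to 0.069 and turned over without SMC line 1. Members higher in non-SMC ranged from 3 to 8, the latter without SMC line 2, and members higher in SMC from 1 to 5, the latter without SMC line 1. Non-SMC-only promoters ranged from 1 to 2 and SMC-only promoters from 0 to 2, the latter without non-SMC line 1. Non-SMC-only regions ranged from 18 to 47, over 1.5 times the main count without either non-SMC line, and SMC-only regions from 7 to 47, over 1.5 times without either SMC line. Regions higher in both non-SMC lines ranged from 22 to 41 and in both SMC lines from 10 to 35, with the same libraries behind the rise. Fewer libraries make each call easier to meet.

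The study calls the lines paired but no label says that a number marks a pair. Over 20312 gene windows the deviations of same-numbered lines from their type correlated at 0.05. Line 1 is the shallower library in SMC and the deeper in non-SMC, so this value cannot decide whether the lines are paired. With the line pair as a block, pair 1 alone gave a log2 ratio of -0.81, 9 members higher in non-SMC, 4 non-SMC-only promoters, 57 non-SMC-only and 22 SMC-only regions, and 43 and 36 regions higher in non-SMC and SMC. Pair 2 alone gave 0.23, 7 members higher in SMC, 2 non-SMC-only and 4 SMC-only promoters, 45 non-SMC-only and 55 SMC-only regions, and 61 and 36 regions higher in non-SMC and SMC. *Cav2*, *Acta2* and *Flna* were higher in non-SMC and *Myl9* in SMC in both pairs.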

Other observations

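Of the 13 regions with a peak in all 4 libraries, 4 had a member as the gene with the nearest TSS. Most of the others sat at promoters of neighbouring genes, among them *Tmem259*, *Arhgef39*, *Ecsit*, *Elof1*, *Sidt2*, *Emd* and *Rpl10*. Of the 112 regions with a peak in a single library, 14 and 40 were in SMC lines 1 and 2, and 32 and 26 in non-SMC lines 1 and 2.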
